A study of Homo sapiens with 12 samples.

Results

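Entinostat, which blocks class I histone deacetylases (HDACs), was added to BRAF and MEK inhibition in Hs695T, an established human melanoma cell line grown in serum-supplemented medium. The comparison rests on 6 of the series' 12 single-colour arrays, chosen by title. Of these, 3 arrays came from cells given 100 nM dabrafenib, a BRAF inhibitor, with 10 nM trametinib, a MEK inhibitor (MAPKi). The other 3 came from cells given the same 2 drugs and 1 µM entinostat (the combination). RNA was taken after 24 h. The 6 further arrays, 3 given DMSO (vehicle) and 3 given 1 µM entinostat alone (HDACi), served for the spread of the fit and for setting the entinostat effect beside that in cells without MAPKi. Whether the 3 arrays of a group come from separate cultures is unclear, because their titles speak of biological replicates and the series design of technical ones. The p-values therefore cover the spread between these arrays only, and that spread may be technical. All arrays are of 1 cell line under 1 dose of each drug.

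Histone deacetylases remove acetyl groups from lysines of histones and other proteins. HDAC1 and HDAC2 work inside the CoREST, Sin3 and NuRD corepressor complexes and HDAC3 inside the NCoR complex, which repressors such as REST bring to their target genes. BRAF and MEK drive ERK, whose output in melanoma includes feedback inhibitors (Sprouty and DUSP genes), PEA3 family ETS factors and cyclin D1.

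Values below are log2 of the deposited intensity for the brightest probe set of a gene. A change is a log2 difference of combination minus MAPKi, given ± its limma standard error, and "quantile" marks the same change after quantile normalization. Brightness differed between the groups. Mean intensity was 95.5 ± 4.12 in the combination arrays and 119 ± 6.44 in the MAPKi arrays (SD, n = 3), which do not overlap (exact two-sided permutation p = 0.1, the smallest that 3 against 3 allows). Median intensity per array was 34.78, 39.88 and 33.28 with the combination and 40.76, 39.6 and 37.46 with MAPKi, so that combination replicate 2 lies among the MAPKi arrays. The median change over all 14599 genes was -0.23, from -0.04 in the dimmest of 10 equal bins of genes by brightness to -0.53 in the next to brightest bin, and after quantile normalization it was -0.04. For this reason "rose" and "fell" are used of a gene only where its adjusted p (limma, Benjamini-Hochberg over 14599 genes) was under 0.05 in the same direction on both scales. Lineage markers were uneven: SOX10, the neural crest and melanocyte transcription factor, was at 9.61 with MAPKi, whereas the pigment genes TYR (3.58), TYRP1 (3.31) and MLANA (4.22) lay at dim levels (the 2 dimmest bins have means of 2.95 and 4.10).

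Adding entinostat raised 1265 genes (8.66% of those tested) and lowered 3500 (24.0%). On the deposited scale alone 1267 genes were higher (8.68%) and 5933 lower (40.6%), and after quantile normalization 2859 were higher (19.6%) and 3507 lower (24.0%), so higher genes made up 17.6% of calls on the first scale and 44.9% on the second. Changes of at least 2-fold on both scales were seen for 241 genes that rose and 275 that fell. Changes of at least 4-fold on both scales were seen for 13 and 5. Arrays of the 2 groups did not overlap for 1458 higher genes (9.99%) and 6424 lower genes (44.0%).

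The 15 largest rises ranged from 1.92 (TSPAN2) to 3.15 (NMNAT2 and VAT1L). They were picked among genes whose combination and MAPKi arrays do not overlap, so that separation was a condition of the choice. NMNAT2, which encodes a NAD-synthesizing enzyme of axons, read 5.81, 5.59 and 5.42 in the MAPKi arrays and 8.54, 9.04 and 8.69 in the combination arrays. All 3 combination arrays lay far above all 3 MAPKi arrays, an 8.87-fold rise (3.15 ± 0.13, quantile 3.58, limma adjusted p = 3.8e-10). VAT1L read 5.98, 5.94 and 5.65 with MAPKi and 8.92, 9.06 and 9.03 with the combination, an 8.86-fold rise (3.15 ± 0.12, quantile 3.56). CD24, a small glycosylated surface protein anchored by lipid, went from 7.33, 7.44 and 7.18 to 10.03, 10.05 and 9.89, which is 6.37-fold higher (2.67 ± 0.12, quantile 2.98). The groups of both genes were apart, as the choice required. Stanniocalcin 1 (STC1), a secreted glycoprotein, rose by 2.32 ± 0.10, quantile 2.71, and carboxypeptidase M (CPM), a surface peptidase, by 2.23 ± 0.11, quantile 2.72. The long non-coding RNAs LINC00052 (2.83 ± 0.14, quantile 3.35) and LINC00624 (2.79 ± 0.13, quantile 3.35) rose too. Others among the 15 largest rises were the desmosomal plakophilin PKP2 (2.12 ± 0.14, quantile 2.64), the endocytic receptor LRP2 (1.93 ± 0.10, quantile 2.41), the adhesion receptor ADGRV1 (2.03 ± 0.14, quantile 2.49), the tetraspanin TSPAN2 (1.92 ± 0.14, quantile 2.34) and CR2, known as a complement receptor of B cells (2.15 ± 0.11, quantile 2.52). CR2, TSPAN2, ADGRV1 and LRP2 all started from dim levels, with MAPKi means between 3.60 and 4.88.

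The largest fall was in a gene that was bright with MAPKi alone. The angiopoietin-like gene ANGPTL7, whose product is secreted, read 10.85, 10.90 and 10.59 in the MAPKi arrays and 5.27, 5.47 and 5.49 in the combination arrays, 41.3-fold lower (-5.37 ± 0.13, quantile -5.22, limma adjusted p = 2.3e-13). The vehicle arrays read 5.36, 5.47 and 5.02, and their range overlaps that of the combination arrays. PI15, a secreted peptidase inhibitor, went from 7.06, 6.21 and 6.64 to 4.06, 3.84 and 4.09 (-2.64 ± 0.17, quantile -2.65), against 3.83, 4.11 and 3.86 in vehicle. FOXD3, a transcription factor of the neural crest, went from 6.90, 6.79 and 6.76 to 4.30, 5.21 and 4.74 (-2.07 ± 0.17, quantile -2.0), against 5.0, 5.29 and 5.09 in vehicle. The non-coding PPP2R2B-IT1 (-2.44 ± 0.21, quantile -2.51) had the same pattern, at 3.48 in vehicle, 5.74 with MAPKi and 3.30 with the combination. In these 4 genes the combination mean lay close to the vehicle mean and far below the MAPKi mean.

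A second set of large falls went below the vehicle level. ARHGAP31, which encodes a GTPase-activating protein for CDC42 and RAC, went from 9.07, 9.13 and 8.96 to 6.16, 6.23 and 6.02, 7.56-fold lower (-2.92 ± 0.11, quantile -2.61), with a vehicle mean of 8.37. ERBB3, the neuregulin receptor, went from 9.47, 9.60 and 9.50 to 7.15, 7.31 and 7.15 (-2.33 ± 0.11, quantile -1.86), with a vehicle mean of 9.80. SRM, the spermidine synthase gene, went from 11.71, 11.73 and 11.85 to 9.41, 9.69 and 9.48 (-2.24 ± 0.11, quantile -1.93), with a vehicle mean of 11.03. In all 3 genes the MAPKi and combination arrays were apart, which the choice of the largest falls required. The sodium pump regulator FXYD3 (-2.17 ± 0.12, quantile -1.78), the semaphorin receptor PLXNB3 (-2.15 ± 0.13, quantile -1.72), the nuclear receptor coactivator NCOA2 (-2.07 ± 0.11, quantile -1.67) and UROD, an enzyme of haem synthesis (-2.08 ± 0.12, quantile -1.98), fell as well. So did the mitochondrial genes MRPL16 (-2.28 ± 0.12, quantile -1.97) and MTX3 (-2.26 ± 0.11, quantile -2.01), and LANCL2 (-2.14 ± 0.12, quantile -1.96) and KIAA0753, a centriolar gene (-2.08 ± 0.10, quantile -1.79).

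**Figure D1:**
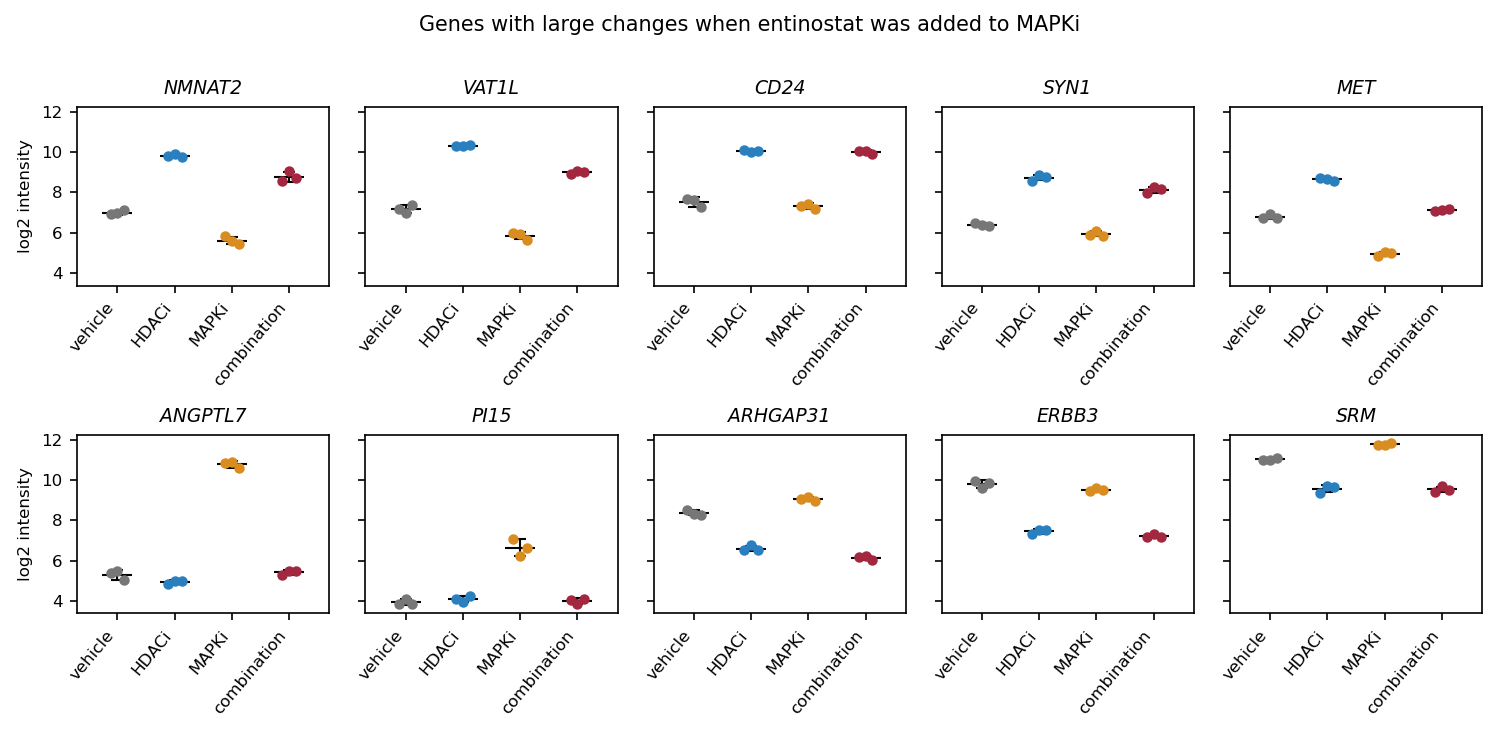
Log2 intensity of 5 genes that rose and 5 that fell when entinostat was added to MAPKi; each coloured point is 1 array, the dash is the group mean and the bars are 1 SD (n = 3). NMNAT2 goes from a mean of 5.61 with MAPKi to 8.76 with the combination, and ANGPTL7 from 10.78 to 5.41, close to its vehicle mean of 5.28.

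Many neuronal genes rose. Of 25 measured genes of neurons and of REST-repressed programmes, 15 rose (against 8.66% of all genes) and 0 fell on both scales (median change 0.46, quantile 0.91, against -0.23 and -0.04 over all genes). Synaptic vesicle genes were prominent. SYN1, which encodes synapsin I, read 5.89, 6.10 and 5.85 with MAPKi and 7.95, 8.26 and 8.15 with the combination (2.18 ± 0.12, quantile 2.68). SYT4, a synaptotagmin, read 3.66, 4.20 and 3.62 and 6.07, 6.47 and 6.09 (2.38 ± 0.22, quantile 2.87), and its combination arrays also lay above the HDACi arrays, which read 5.68, 5.69 and 5.90. For both genes every combination array exceeded every MAPKi array. The calretinin gene CALB2 (1.83 ± 0.10, quantile 2.27), synapsin II (SYN2, 1.20 ± 0.15, quantile 1.55), SYT1 (0.93 ± 0.14, quantile 1.31) and SYT11 (0.87 ± 0.11, quantile 1.09) rose, as did the granule proteins CHGA (0.89 ± 0.14, quantile 1.11), SCG3 (0.72 ± 0.12, quantile 0.91) and SCG2 (0.77 ± 0.19, quantile 0.99). The axonal genes GAP43 (-0.11 ± 0.17, quantile 0.04) and STMN2 (0.04 ± 0.18, quantile 0.14) did not pass on either scale. STMN2 had a mean of 5.26 with entinostat alone against 4.18 in vehicle.

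REST, the zinc finger repressor of neuronal genes, fell. It read 8.64, 8.53 and 8.41 with MAPKi and 6.77, 6.81 and 6.72 with the combination (-1.76 ± 0.11, quantile -1.33, limma adjusted p = 9.6e-09), with no overlap. Of 8 measured genes for REST and its cofactors 4 fell and 1 rose, against 24.0% and 8.66% of all genes. The scaffold SIN3A (-1.53 ± 0.11, quantile -1.06), RCOR3 (-0.99 ± 0.12, quantile -0.51) and the methyltransferase EHMT1 (-0.80 ± 0.12, quantile -0.40) were the others that fell, and the CoREST gene RCOR2 rose (0.67 ± 0.13, quantile 1.0). RCOR1 (-0.08 ± 0.11, quantile 0.40) and the demethylase KDM1A (0.04 ± 0.10, quantile 0.44) passed only after quantile normalization.

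REST binds a long element called RE1, whose left and right arms hold the letters TTCAGCAC and GGACAGCG. Promoters of 300 bases (250 before to 50 after the gene start, RefSeq, GRCh38.p14) were available for 17 of the 25 neuronal genes and were searched on both strands for these exact letters, chosen with the expression values known. The left arm was found in 4 of 17 (23.5%) against 0.956% of all 27305 promoters, and the right arm in 5 of 17 (29.4%) against 1.72%. Both arms were in SCG3, VGF and UNC13A (3 of 17, 17.6%, against 0.033%). These shares are descriptions and no test was made. The list was drawn to hold REST-repressed genes, so high shares were built in and do not bear on the response to entinostat. GAP43 and BSN hold the right arm and did not rise. SYN2, SYT1, SYT4, SYT11, CHGA and NMNAT2 rose with neither arm found. The SYN1 promoter (chrX:47619808-47620107, minus strand) and the SCG3 promoter (chr15:51681253-51681552, plus strand) are shown, both of genes that rose. Capitals mark exact matches, the left arm in SYN1 and both arms in SCG3. In SYN1 the letters ggacagtg follow the left arm closely. They are near to the right arm searched but not identical, so the exact search passed over them and does not show that SYN1 lacks a right arm.
SYN1: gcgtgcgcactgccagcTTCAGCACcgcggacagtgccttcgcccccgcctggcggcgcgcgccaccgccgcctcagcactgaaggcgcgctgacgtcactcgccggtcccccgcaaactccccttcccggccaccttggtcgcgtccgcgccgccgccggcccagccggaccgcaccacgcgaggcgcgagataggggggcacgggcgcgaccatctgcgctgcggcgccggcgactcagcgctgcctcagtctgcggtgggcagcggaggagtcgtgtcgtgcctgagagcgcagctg
SCG3: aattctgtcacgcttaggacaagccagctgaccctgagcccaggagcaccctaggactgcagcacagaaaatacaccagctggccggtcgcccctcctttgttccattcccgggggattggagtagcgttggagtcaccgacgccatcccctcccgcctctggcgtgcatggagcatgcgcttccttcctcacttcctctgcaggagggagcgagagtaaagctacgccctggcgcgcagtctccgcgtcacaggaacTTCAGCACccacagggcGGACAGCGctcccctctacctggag

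Most mitotic genes were higher with the combination than with MAPKi. Their median level was 7.95 with the combination, 7.52 with MAPKi and 9.12 in vehicle. Of 23 measured mitosis genes 18 rose and 0 fell on both scales, against 8.66% and 24.0% of all genes. PRC1 was lower on the deposited scale alone (-0.52 ± 0.13, quantile -0.04). The median change was 0.49 (quantile 0.93). The arrays read bulk RNA, so more cells in mitosis and more of these RNAs per cell cannot be told apart. CDK1, the kinase that starts mitosis, read 6.46, 6.82 and 6.26 with MAPKi and 7.92, 7.74 and 7.83 with the combination, 2.49-fold higher (1.31 ± 0.13, quantile 1.81, limma adjusted p = 5.8e-07), against 8.72, 8.54 and 8.47 in vehicle. AURKB, the kinase of the chromosomal passenger complex, read 6.95, 7.28 and 6.95 and 8.23, 8.46 and 8.33 (1.28 ± 0.13, quantile 1.75), against 9.13, 8.87 and 9.34 in vehicle. In both, the combination arrays lay between MAPKi and vehicle without overlap. CDC20, an activator of the anaphase-promoting complex (1.05 ± 0.11, quantile 1.43), the kinesin motors KIF11 (0.99 ± 0.11, quantile 1.36) and KIF20A (0.93 ± 0.11, quantile 1.19), the spindle checkpoint kinase BUB1 (0.92 ± 0.10, quantile 1.29), the phosphatase CDC25C (0.98 ± 0.11, quantile 1.49) and topoisomerase TOP2A (0.88 ± 0.11, quantile 1.15) rose too. MKI67, a proliferation marker, rose by 0.52 ± 0.10, quantile 0.84, and the kinase PLK1 by 0.65 ± 0.13, quantile 0.98. AURKA (-0.03 ± 0.11, quantile 0.46) and BIRC5 (0.13 ± 0.11, quantile 0.63) passed only after quantile normalization.

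With entinostat alone few of these genes were higher. Against vehicle it raised 1 (9.95% of all genes rose there) and lowered 4 (21.3%) of the same 23 genes on both scales, with CDK1 at 0.29 and AURKB at -0.11. The 2 entinostat effects come from different arrays, and their difference was tested directly (combination minus MAPKi, less HDACi minus vehicle). That difference was higher on both scales for 22 of 23 mitosis genes, against 3.02% of all genes, with CDK1 at 1.03 (limma adjusted p = 0.0018), AURKB at 1.39 (0.00017), PLK1 at 1.27 (0.00032), CDC20 at 1.03 (0.0006) and MKI67 at 0.74 (0.003).

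**Figure D2:**
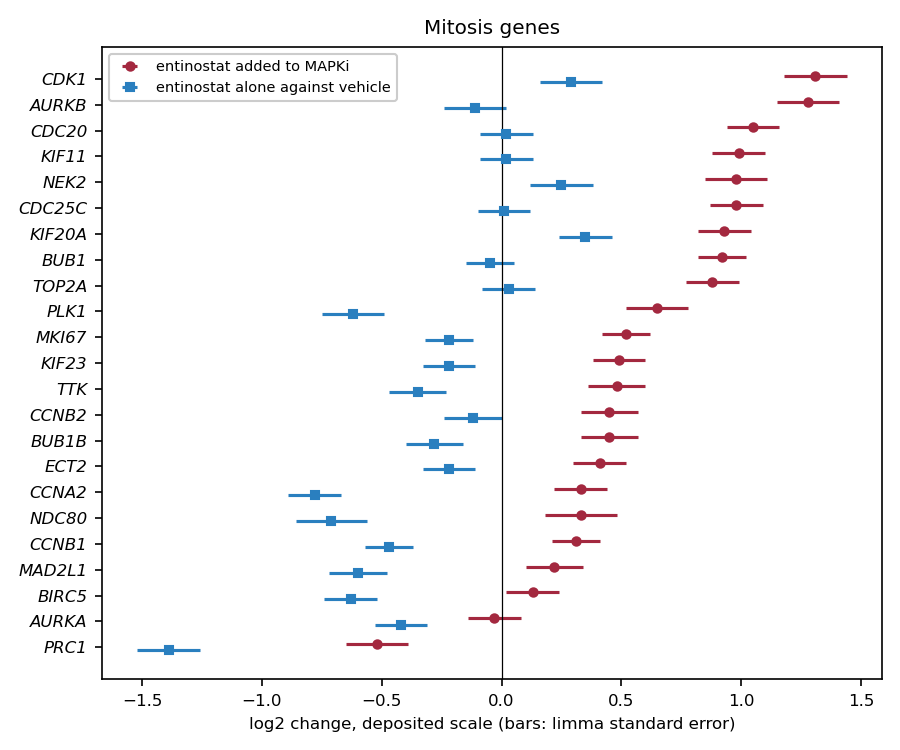
Log2 change of each measured mitosis gene on the deposited scale (3 arrays a group, bars are limma standard errors) when entinostat was added to MAPKi (circles) and when it was given alone (squares). The circles lie to the right of the squares for all 23 genes, from PRC1 (-0.52 and -1.39) to CDK1 (1.31 and 0.29).

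Promoters of mitotic genes often carry a cell cycle gene homology region (CHR), through which the DREAM and MYB-MuvB complexes act, and CCAAT boxes, bound by NF-Y. The CHR letters TTTGAA or TTCGAA were found on either strand in 14 of 20 mitosis promoters available (70.0%), against 16.6% of all 27305 promoters, and CCAAT in 17 of 20 (85.0%) against 35.7%. Both were in 12 of 20 (60.0%) against 6.58%. In the neuronal promoters they were in 0 of 17 for CHR and 4 of 17 (23.5%) for CCAAT. In 16 promoters of the DNA replication list, whose genes moved in both directions, CHR was in 2 (12.5%), CCAAT in 11 (68.8%) and both in 2 (12.5%). These motifs were chosen with the values known and are given as descriptions. CHR did not separate the mitosis genes that rose from those that did not. MAD2L1, NDC80 and PRC1 did not rise on both scales and hold CHR, MAD2L1 and PRC1 with CCAAT. CCNB1, CCNA2, AURKB, CDC25C, KIF20A and NEK2 rose with no match to these letters found. CDK1 (chr10:60778081-60778380, plus strand) and CDC20 (chr1:43358731-43359030, plus strand) are shown as genes that rose and hold both, in capitals, TTCAAA being TTTGAA read on the other strand.
CDK1: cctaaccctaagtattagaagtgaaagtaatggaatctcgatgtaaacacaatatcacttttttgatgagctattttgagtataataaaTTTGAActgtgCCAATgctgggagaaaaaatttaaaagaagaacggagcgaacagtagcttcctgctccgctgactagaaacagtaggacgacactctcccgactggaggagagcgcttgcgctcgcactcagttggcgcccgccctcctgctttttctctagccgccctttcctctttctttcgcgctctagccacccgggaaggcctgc
CDC20: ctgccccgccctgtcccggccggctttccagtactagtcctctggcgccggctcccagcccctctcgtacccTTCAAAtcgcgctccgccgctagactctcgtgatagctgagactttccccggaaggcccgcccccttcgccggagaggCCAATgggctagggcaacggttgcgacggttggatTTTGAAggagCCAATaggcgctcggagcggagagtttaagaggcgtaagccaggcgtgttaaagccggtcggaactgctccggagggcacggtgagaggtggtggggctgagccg

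Replication and G1/S genes were mixed. Of 19 DNA replication genes 3 rose and 4 fell, against 8.66% and 24.0% of all genes, the latter count near its share. On the deposited scale 10 were lower, against 40.6% of all genes. The median was -0.34 (quantile -0.01). The licensing helicase genes MCM6 (-0.94 ± 0.10, quantile -0.58), MCM5 (-0.92 ± 0.12, quantile -0.57) and MCM4 (-0.87 ± 0.10, quantile -0.42) and the ribonucleotide reductase gene RRM1 (-0.85 ± 0.12, quantile -0.42) fell, while its partner RRM2 (0.46 ± 0.11, quantile 0.95), GINS4 (0.47 ± 0.14, quantile 0.75) and CDC6 (0.35 ± 0.12, quantile 0.59) rose. MCM5 read 7.05, 7.24 and 7.04 with MAPKi and 6.24, 6.25 and 6.06 with the combination, all far below the vehicle mean of 10.11. Of 16 E2F and G1/S genes 5 fell and 2 rose, near the 24.0% and 8.66% over all genes, with a median of -0.25 (quantile 0.03). The fallen genes were E2F3 (-1.35 ± 0.10, quantile -1.26), the cyclins CCNE1 (-1.22 ± 0.12, quantile -0.93) and CCNE2 (-1.0 ± 0.11, quantile -0.82) and the kinases CDK4 (-1.04 ± 0.12, quantile -0.56) and CDK6 (-0.97 ± 0.11, quantile -0.53), which pair with D cyclins. Cyclin D2 (CCND2) rose (1.38 ± 0.16, quantile 1.74), reading 4.72, 4.47 and 4.47 and 5.81, 6.15 and 5.83, as did MYBL2 (0.30 ± 0.11, quantile 0.78). Cyclin D1 (CCND1) had means of 7.22 with MAPKi and 7.33 with the combination (0.11 ± 0.11, limma adjusted p = 0.44), and passed only after quantile normalization (0.60), against 9.91 in vehicle. MYC also passed only there (0.19 ± 0.13, quantile 0.53). Of 4 cell cycle brakes 3 fell (against 24.0% of all genes), namely RBL2 (-1.45 ± 0.10, quantile -0.99), RBL1 (-0.70 ± 0.12, quantile -0.27) and CDKN2A (-0.36 ± 0.14, quantile -0.27). RB1 was lower on the deposited scale alone (-0.62 ± 0.11, quantile -0.20). CDKN1A, which responds to HDAC inhibitors in many cells, was not analysed here.

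SPRY4 and DUSP6, ERK feedback genes far below vehicle under MAPKi, did not pass when entinostat was added. Of 19 measured MAPK output genes 6 rose and 2 fell, against 8.66% and 24.0% of all genes, with a median change of 0.07 (quantile 0.41). The Sprouty gene SPRY4 read 5.18, 5.01 and 5.09 with MAPKi and 5.04, 5.05 and 5.10 with the combination, against 11.26, 11.03 and 11.21 in vehicle (-0.03 ± 0.12, quantile 0.09, limma adjusted p = 0.88). DUSP6, the ERK phosphatase, read 4.65, 4.33 and 4.22 and 4.66, 4.77 and 3.99, against 8.95, 8.93 and 8.90 in vehicle (0.07 ± 0.17, quantile 0.18). The arrays of the 2 treatments overlapped for both genes. ETV5 (0.04 ± 0.14, quantile 0.15) did not pass either, nor did SPRY2 on the deposited scale (0.28 ± 0.12, quantile 0.41). Further falls were seen for FOSL1, an AP-1 subunit, from 5.74, 6.03 and 5.71 to 4.99, 4.60 and 5.14 (-0.92 ± 0.15, quantile -0.82), and for the phosphatase DUSP4 (-0.83 ± 0.12, quantile -0.52). The genes that rose were IER3 (1.18 ± 0.12, quantile 1.55), the pseudokinase TRIB1 (0.85 ± 0.11, quantile 1.14), ETV1 (0.68 ± 0.15, quantile 0.87), DUSP5 (0.66 ± 0.15, quantile 0.85), the ephrin receptor EPHA4 (0.44 ± 0.12, quantile 0.89) and ETV4 (0.42 ± 0.12, quantile 0.60). IER3 read 8.10, 8.09 and 7.91 and 8.99, 9.37 and 9.29, still below the vehicle arrays at 11.01, 10.89 and 11.08. In the list of AP-1 and other immediate early genes, 3 of 15 fell and 2 rose, near the 24.0% and 8.66% over all genes. FOS (-0.83 ± 0.12, quantile -0.41) and the small MAF gene MAFG (-0.62 ± 0.12, quantile -0.41) fell with FOSL1, and JUN was lower on the deposited scale alone (-0.37 ± 0.10, quantile 0.11). JUNB (0.32 ± 0.13, quantile 0.80, limma adjusted p = 0.047) and IER5 (0.26 ± 0.10, quantile 0.75, 0.036) passed narrowly.

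Receptor genes moved in both directions. Of 12 receptor tyrosine kinases 4 rose (against 8.66% of all genes) and 3 fell, the latter near the 24.0% over all genes. MET, the hepatocyte growth factor receptor, read 4.82, 5.04 and 4.98 with MAPKi and 7.05, 7.10 and 7.17 with the combination, 4.48-fold higher (2.16 ± 0.10, quantile 2.66), and so lay above the vehicle arrays at 6.73, 6.91 and 6.71. EGFR went from 5.54, 5.77 and 5.61 to 6.82, 7.0 and 6.95 (1.28 ± 0.11, quantile 1.76), below vehicle at 8.09, 7.82 and 7.94. ERBB4 (0.98 ± 0.20, quantile 1.43) and FGFR1 (0.46 ± 0.12, quantile 0.88) rose too. ERBB3, described above, FGFR2 (-1.14 ± 0.10, quantile -0.71) and FGFR3 (-0.73 ± 0.15, quantile -0.60) fell. AXL (0.08 ± 0.11, quantile 0.42) and IGF1R (0.04 ± 0.11, quantile 0.38) were not called on the deposited scale.

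Genes of the dedifferentiated melanoma state rose in part, whereas melanocyte genes were mixed. Of 16 measured dedifferentiation genes 8 rose and 0 fell, against 8.66% and 24.0% of all genes (median 0.26, quantile 0.53). SOX2, a stem cell transcription factor, went from 6.12, 6.17 and 6.28 to 7.70, 7.88 and 7.78 (1.59 ± 0.12, quantile 2.09), above both the vehicle mean of 6.53 and the HDACi mean of 7.28. NGFR, a neural crest marker, went from 7.35, 7.21 and 7.11 to 8.65, 8.81 and 8.64 (1.48 ± 0.10, quantile 1.90), against 9.20 in vehicle. SOX9 (0.93 ± 0.13, quantile 1.43) and TWIST1 (0.51 ± 0.12, quantile 0.81), transcription factors of the neural crest and mesenchyme, rose as well. Of 17 melanocyte genes 5 fell and 2 rose, near the shares over all genes (24.0% and 8.66%; median -0.28, quantile -0.06). MITF, the master regulator of the lineage, went from 6.32, 6.25 and 6.05 to 5.11, 5.32 and 4.94 (-1.09 ± 0.13, quantile -0.95, limma adjusted p = 3.1e-06), with no overlap. SOX10 (-0.81 ± 0.12, quantile -0.39) and MLANA (-0.47 ± 0.11, quantile -0.42) fell too. The endothelin receptor gene EDNRB rose (0.88 ± 0.12, quantile 1.18), and PMEL passed narrowly (0.35 ± 0.14, quantile 0.63, limma adjusted p = 0.047). GPNMB, a melanosomal glycoprotein, did not pass (-0.32 ± 0.14, quantile 0.14), with means of 8.43 and 8.11 against 5.11 in vehicle, although its combination arrays all lay below its MAPKi arrays.

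Death and survival genes of the BCL2 family also split. Of 14 measured members 6 fell and 3 rose, against 24.0% and 8.66% of all genes, with a median change of -0.21 (quantile 0.03). BAX (-1.19 ± 0.11, quantile -0.80), BAK1 (-0.63 ± 0.12, quantile -0.47), BID (-0.82 ± 0.12, quantile -0.56) and BAD (-0.73 ± 0.12, quantile -0.45), which promote death, and BCL2L1, which encodes the survival protein BCL-XL (-1.04 ± 0.12, quantile -0.67), fell. The BH3-only gene BMF, which also promotes death, fell from 8.30, 8.37 and 8.34 with MAPKi to 7.25, 7.54 and 7.36 with the combination (-0.95 ± 0.11, quantile -0.48), and stayed above vehicle at 6.69, 6.62 and 6.38. The survival gene BCL2 rose from 4.60, 5.0 and 4.50 to 5.27, 5.54 and 5.75 (0.82 ± 0.15, quantile 1.05), below its vehicle mean of 7.15. PMAIP1 (NOXA, 0.50 ± 0.10, quantile 0.97) and BIK (0.62 ± 0.21, quantile 0.87) rose, BIK with overlapping arrays. BCL2L11 (BIM), at 8.22 and 8.31, did not pass on the deposited scale (0.08 ± 0.11, quantile 0.54), nor did MCL1 (-0.18 ± 0.11, quantile 0.27). Of 7 p53 targets 2 fell, TP53I3 (-1.39 ± 0.12, quantile -0.95) and BAX, and 0 rose, which is near the shares over all genes (24.0% and 8.66%).

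Most measured end-joining genes fell. Of 7 measured non-homologous end joining genes 6 fell (against 24.0% of all genes), with a median of -0.91 (quantile -0.59). TP53BP1, which shields breaks from resection, read 7.32, 7.13 and 6.96 with MAPKi and 5.40, 5.68 and 5.51 with the combination (-1.60 ± 0.13, quantile -1.41), against 7.65 in vehicle. The Ku subunits XRCC6 (-1.17 ± 0.11, quantile -0.72) and XRCC5 (-0.76 ± 0.10, quantile -0.42) fell, as did RIF1 (-1.02 ± 0.11, quantile -0.59) and XRCC4 (-0.91 ± 0.12, quantile -0.64). All 3 combination arrays lay below all 3 MAPKi arrays for each of these 5 genes, as they did for 44.0% of all genes. Of 16 base excision repair genes 7 fell and 1 rose, against 24.0% and 8.66% of all genes. UNG, the uracil glycosylase (-1.40 ± 0.11, quantile -1.24), NEIL1 (-1.38 ± 0.15, quantile -1.16), the endonuclease APEX1 (-1.38 ± 0.12, quantile -0.91) and XRCC1 (-1.14 ± 0.11, quantile -0.68) fell, while NEIL3 rose (1.14 ± 0.12, quantile 1.63). All 4 measured genes of direct reversal and translesion synthesis fell, among them MGMT (-0.84 ± 0.11, quantile -0.75) and POLI (-1.16 ± 0.12, quantile -0.68). Of 19 homologous recombination genes 3 fell and 1 rose, below the 24.0% and 8.66% over all genes. On the deposited scale 11 were lower, against 40.6% of all genes. PALB2 (-1.16 ± 0.11, quantile -0.82) fell most, and EXO1 rose (0.34 ± 0.11, quantile 0.66). Of 5 mismatch repair genes 2 fell, PMS2 (-1.34 ± 0.11, quantile -0.88) and MSH3 (-0.74 ± 0.10, quantile -0.26), and 1 rose (EXO1), too few to set against the shares over all genes. The 2 measured Fanconi genes were UBE2T, which rose (0.46 ± 0.09, quantile 0.90), and FAN1, lower on the deposited scale alone (-0.49 ± 0.12, quantile -0.08).

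Among chromatin genes, most acetyltransferases and some corepressor subunits fell. The counts are to be read against 24.0% of all genes lower and 8.66% higher. Of 10 measured acetyltransferase and BET reader genes 7 fell and 0 rose (median -0.86, quantile -0.51). EP300 (-1.0 ± 0.11, quantile -0.62) and CREBBP (-0.86 ± 0.10, quantile -0.55), the paralogous acetyltransferases p300 and CBP, fell with KAT7 (-1.24 ± 0.12, quantile -0.83) and KAT6B (-1.19 ± 0.10, quantile -0.72). Of 20 class I corepressor subunits 9 fell and 1 rose (median -0.54, quantile -0.11), led by SIN3A, which read 8.74, 8.74 and 8.52 and 6.99, 7.31 and 7.12. CHD3 of NuRD (-1.04 ± 0.11, quantile -0.63), SUDS3 of Sin3 (-1.07 ± 0.12, quantile -0.86) and RBBP4 (-0.92 ± 0.11, quantile -0.46) were others that fell. Of the class I deacetylase genes HDAC8 fell (-0.67 ± 0.14, quantile -0.32), whereas HDAC1, HDAC2 and HDAC3 did not pass in 1 direction on both scales. HDAC1 was at 8.59 with MAPKi and 8.41 with the combination (-0.18 ± 0.10, quantile 0.26), HDAC2 at 6.43 and 6.0 (-0.43 ± 0.11, quantile -0.10), and HDAC3 at 7.84 and 7.92 (0.08 ± 0.10, quantile 0.55). Of the 11 HDAC genes 4 fell, including HDAC8 and the class IIa gene HDAC4 (-0.59 ± 0.15, quantile -0.47), and HDAC9 alone rose on both scales (0.64 ± 0.13, quantile 1.0). The HDAC list's median was -0.30 on the deposited scale and -0.02 after quantile normalization. Of 12 Polycomb genes 3 fell, including PHF19 (-1.03 ± 0.12, quantile -0.75), and EZH2, the histone H3 methyltransferase, rose (0.43 ± 0.10, quantile 0.88), counts near the shares over all genes (24.0% and 8.66%).

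Genes reported to rise under HDAC inhibitors in many cell types rose in part: 7 of 14 measured rose and 0 fell, against 8.66% and 24.0% of all genes. Besides STC1 and SYT11 they were SAT1, a polyamine acetyltransferase (1.22 ± 0.11, quantile 1.49), clusterin (CLU, 1.05 ± 0.12, quantile 1.56), DHRS2 (0.97 ± 0.11, quantile 1.27), KLF6 (0.45 ± 0.13, quantile 0.91) and the metallothionein MT1X (0.38 ± 0.14, quantile 0.76). TXNIP (0.07 ± 0.12, quantile 0.36) and gelsolin (GSN, -0.12 ± 0.12, quantile 0.31) were not called on the deposited scale. Entinostat alone raised 7 and lowered 3 of the 14 genes on both scales. The lowered genes included KLF6 (-0.76) and GSN (-0.77). KLF6 had means of 9.38 in vehicle and 6.78 with the combination, so its rise was seen only beside MAPKi. Of 9 metallothioneins 2 rose, MT1X and the dim MT1B (0.26 ± 0.10, quantile 0.30).

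**Figure D3:**
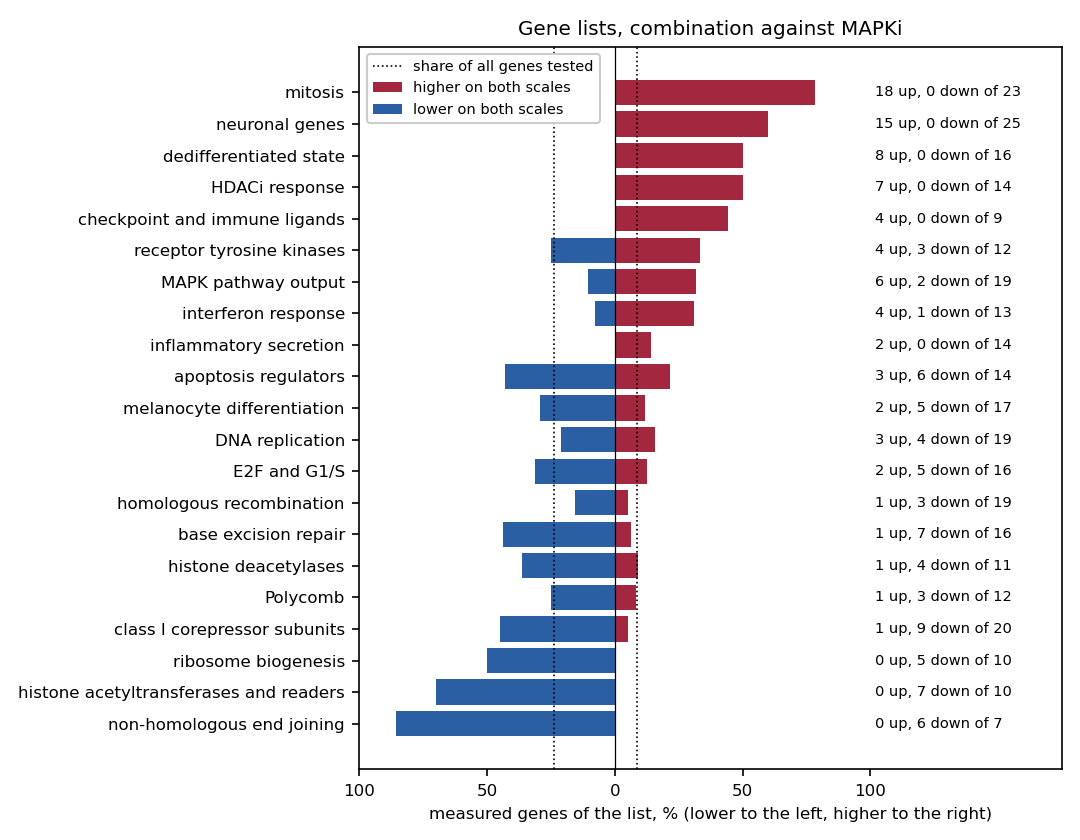
Share of the measured genes of each list drawn that rose (right) or fell (left) on both scales when entinostat was added to MAPKi, with counts at the right edge. Dotted lines mark the shares over all 14599 genes, 8.66% higher and 24.0% lower; mitosis (18 of 23) and neuronal genes (15 of 25) reach farthest right of the lists drawn and end joining (6 of 7) farthest left.

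Several inflammatory genes that entinostat raised strongly when given alone did not pass under MAPKi. Of 14 measured genes 2 rose (8.66% of all genes did), against 8 with entinostat alone (9.95% of all genes). TREM1, a receptor of myeloid cells, read 4.77, 4.77 and 4.44 with MAPKi and 4.68, 5.11 and 4.35 with the combination (0.05 ± 0.16, quantile 0.16), whereas it read 5.34, 5.14 and 5.20 in vehicle and 8.66, 8.71 and 8.74 with HDACi. CXCL8, a neutrophil chemokine, read 3.34, 3.42 and 3.10 and 2.82, 3.38 and 3.18 (-0.16 ± 0.16, quantile -0.12), against 3.79, 3.20 and 3.54 in vehicle and 5.90, 5.55 and 5.80 with HDACi. The combination arrays of both genes overlapped the MAPKi arrays and lay far below the HDACi arrays. The direct test of the difference passed on both scales for TREM1 (-3.43, limma adjusted p = 2.7e-07), CXCL8 (-2.40, 1e-05), the cytokine IL24 (-1.74, 0.0005), the collagenase MMP1 (-1.50, 2.5e-05) and CCL2 (-0.69, 0.0055). Entinostat alone raised CCL2 by only 0.40, and with MAPKi CCL2 was lower on the deposited scale alone (-0.30 ± 0.10, quantile 0.11). The genes that did rise were ICAM1, an adhesion ligand for leukocytes (1.08 ± 0.12, quantile 1.54), and MMP13 (0.97 ± 0.21, quantile 1.11), for which the difference was also called (-2.13).

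Immune and guidance ligands rose in part, with counts to be read against 8.66% of all genes higher and 24.0% lower. Of 9 immune ligand genes of tumour cells 4 rose and 0 fell. The NKG2D ligands ULBP3 (1.79 ± 0.12, quantile 2.30), MICB (0.63 ± 0.11, quantile 1.09) and MICA (0.44 ± 0.12, quantile 0.88) rose. CD274, which encodes PD-L1, went from 3.96, 4.40 and 4.25 to 5.01, 5.24 and 4.77 (0.81 ± 0.14, quantile 0.99), against 4.89, 4.94 and 4.63 in vehicle and 6.66, 6.73 and 6.75 with HDACi. Of 13 interferon response genes 4 rose and 1 fell, with IFIT1 highest (0.84 ± 0.16, quantile 1.14) and MX2 lowest (-1.05 ± 0.13, quantile -0.81). Of 18 ephrin, semaphorin and receptor genes 6 rose and 1 fell (3 to 5 were higher on the deposited scale when 1 array was left out). EFNB2, encoding ephrin-B2, went from 5.45, 5.88 and 5.42 to 7.43, 7.50 and 7.34 (1.84 ± 0.14, quantile 2.35), EFNA3 rose (0.87 ± 0.11, quantile 1.37) and the receptor EPHB4 fell (-0.75 ± 0.10, quantile -0.28). Of 7 adhesion and matrix genes THBS1 alone rose on both scales (0.49 ± 0.10, quantile 0.49). Neither of the 2 antigen presentation genes passed on both scales, B2M (-0.15 ± 0.11, quantile 0.20) and TAPBP (-0.47 ± 0.11, quantile -0.03).

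Among growth and metabolic lists, counts are to be read against 24.0% of all genes lower and 8.66% higher. Of 10 ribosome biogenesis genes 5 fell and 0 rose, and NOP16 (-1.41 ± 0.11, quantile -1.29) and WDR43 (-1.05 ± 0.12, quantile -0.60) were among those that fell. All 10 were lower on the deposited scale, where 40.6% of all genes were. Of 11 sterol synthesis genes 3 fell and 1 rose, NSDHL lowest (-0.95 ± 0.11, quantile -0.48) and DHCR7 highest (0.51 ± 0.11, quantile 1.01). Of 7 glycolysis genes HK2 (-0.71 ± 0.13, quantile -0.55) and GPI (-0.62 ± 0.10, quantile -0.25) fell. These sterol and glycolysis counts are near the share over all genes. Of 5 respiratory chain genes UQCRC2 (-0.91 ± 0.10, quantile -0.56) and CYC1 (-0.91 ± 0.11, quantile -0.46) fell. Of 14 lysosome and autophagy genes ATG7 (-0.77 ± 0.12, quantile -0.56) and TFEB (-0.32 ± 0.12, quantile -0.24) fell and CTSL rose (0.28 ± 0.10, quantile 0.77), below the share of all genes that fell. The medians of the sterol, glycolysis and lysosome lists were -0.24, -0.30 and -0.27 on the deposited scale and turned to 0.16, 0.12 and 0.13 after quantile normalization. Of 3 cancer-testis genes CTAG2 (-1.10 ± 0.17, quantile -0.73) and CSAG1 (-0.89 ± 0.11, quantile -0.64) fell. Of 6 housekeeping genes TBP alone fell on both scales (-0.90 ± 0.11, quantile -0.45), and GAPDH did not pass (-0.20 ± 0.12, quantile 0.18).

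Markers of other cell types were mostly dim. With 3 to 6 genes a list, the counts are too few to set against the shares over all genes (8.66% rose and 24.0% fell). Of 4 leukocyte markers CD68, a lysosomal gene also active outside leukocytes, rose (0.43 ± 0.12, quantile 0.91). CD14 was at 4.32 and 4.29. Of 6 keratinocyte and epithelial markers EPCAM rose (0.54 ± 0.13, quantile 0.81) and KRT10 fell (-0.83 ± 0.12, quantile -0.80), of 3 fibroblast markers THY1 rose (0.74 ± 0.12, quantile 1.14) with DCN at 2.71 and 2.76, and of 3 endothelial markers KDR rose (1.15 ± 0.12, quantile 1.62) with VWF at 4.70 and 4.51. Summed intensity of the 4 leukocyte markers was 250.1 to 289.6 with MAPKi and 332.6 to 355.2 with the combination. For the 6 epithelial markers the ranges were 168.9 to 191.0 and 143.8 to 191.0, for the 3 fibroblast markers 60.2 to 68.6 and 92.3 to 104.0, and for the 3 endothelial markers 110.4 to 141.9 and 155.3 to 198.5. The leukocyte, fibroblast and endothelial ranges do not overlap between the groups. Each of these sums holds the marker already named as risen, CD68 (8.12 with the combination), THY1 or KDR (6.83). The ranges are therefore not separate results about a set of markers. No marker is at 0, and their part in any result was not tested.

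Across all genes the entinostat effects with and without MAPKi ran largely in parallel. Pearson's r between them was 0.76 over 14599 genes (0.747 after quantile normalization), a description across genes, which share arrays and are not independent. Of 1265 genes that rose with MAPKi present, 863 (68.2%) also rose with entinostat alone, which is 59.4% of the 1453 that rose there. Of 3500 that fell, 2139 (61.1%) fell with entinostat alone, which is 68.7% of 3113. Genes called in opposite directions numbered 17 that rose with MAPKi present and fell alone, and 16 the other way. On the deposited scale entinostat alone had 1513 higher (10.4%) and 5424 lower genes (37.2%), and after quantile normalization 2651 (18.2%) and 3128 (21.4%). The direct test of the difference called 441 genes higher (3.02%) and 622 lower (4.26%) on both scales. It called 462 higher (3.16%) and 706 lower (4.84%) on the deposited scale, and 901 (6.17%) and 929 (6.36%) after quantile normalization.

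**Figure D4:**
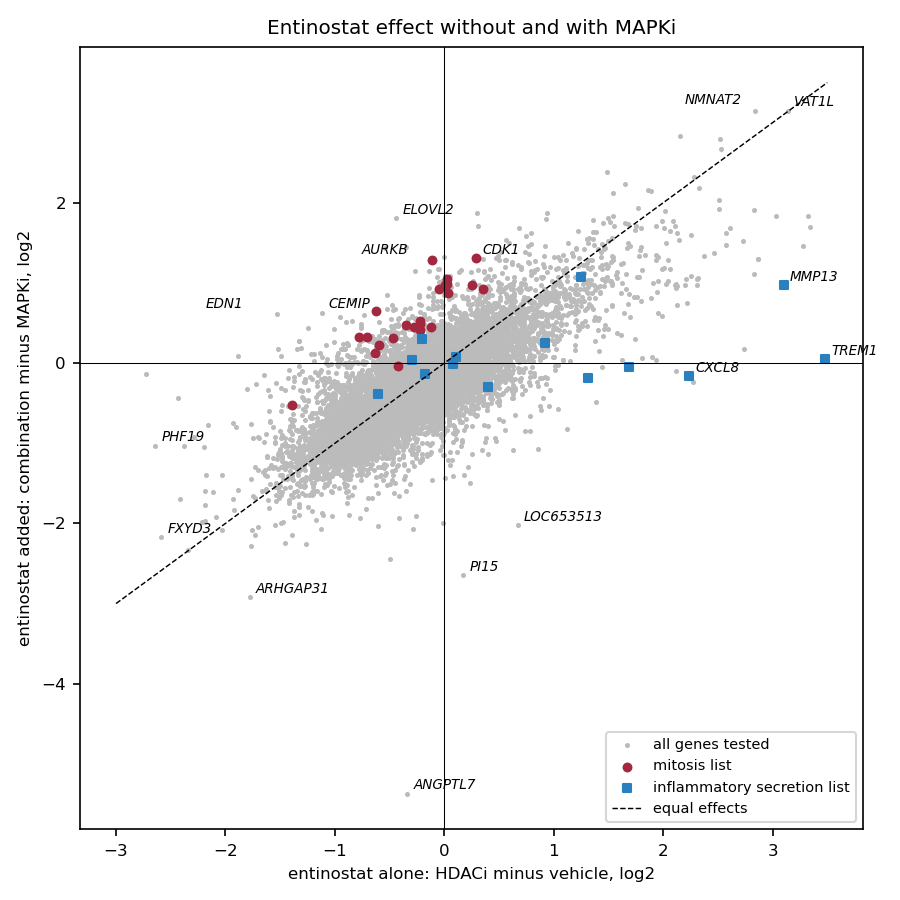
Log2 effect of entinostat alone (x axis, HDACi minus vehicle) and added to MAPKi (y axis, combination minus MAPKi), on the deposited scale, with 1 grey point per gene (14599) and the dashed line marking equal effects. Mitosis genes (circles) lie above the line, the inflammatory gene TREM1 (3.48 and 0.05) lies below it, and ANGPTL7 is at -0.34 and -5.37.

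Among genes with the highest differences, several were low with MAPKi and rose when entinostat was added, but not when entinostat was given alone. ELOVL2, a fatty acid elongase, read 5.43, 5.66 and 5.42 with MAPKi and 7.28, 7.32 and 7.36 with the combination (1.81 ± 0.10, quantile 2.32), against 9.13, 9.03 and 9.02 in vehicle and 8.59, 8.63 and 8.65 with HDACi. EDN1, encoding endothelin 1, read 4.26, 4.26 and 4.15 and 4.81, 4.75 and 4.94 (0.61 ± 0.10, quantile 0.77), against 7.55, 7.41 and 7.40 in vehicle and 5.85, 6.05 and 5.87 with HDACi. Entinostat raised EDN1 with MAPKi and lowered it without (-1.53). The same opposite calls were made for the hyaluronan-binding CEMIP (0.63 with MAPKi, -1.12 without), TMEM158 (0.44 and -1.25) and DENND2A (0.79 and -0.83). The transcription factor TFAP2C (1.45 ± 0.10, quantile 1.87, alone -0.35), EFR3B (1.43 ± 0.11, quantile 1.94, alone -0.54), PTCHD1 (1.87 ± 0.13, quantile 2.33, alone 0.30) and the melanoma proteoglycan CSPG4 (0.58 ± 0.13, quantile 1.08, alone -0.95) were also in this group. PHF19 fell in both settings but less with MAPKi (-1.03, alone -2.64), where it started lower (6.88 against 9.10).

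Lower differences were called for ANGPTL7 (-5.03, limma adjusted p = 1.4e-10), PI15 (-2.81), the transcribed pseudogene LOC653513 (-2.70), PPP2R2B-IT1 (-1.94), FOXD3 (-1.78) and the matrix gene MATN2 (-1.98). Each had a higher mean with MAPKi than in vehicle. Choice by the difference favours this pattern, because the difference subtracts the MAPKi mean and adds the vehicle mean. It likewise favours low MAPKi means among the highest differences. Entinostat alone lowered none of them on both scales, and it raised LOC653513 (0.67). MATN2 read 8.34, 8.24 and 8.21 with MAPKi and 6.38, 6.38 and 6.08 with the combination, against 5.79, 5.46 and 5.70 in vehicle. SIPA1L2 (-1.07 with MAPKi, 0.86 without), JPH1, a junctional membrane gene (-0.82 and 1.12), FGFR2 (-1.14 and 0.40), the formin FHOD3 (-1.09 and 0.63) and the orphan receptor GPR158 (-0.85 and 0.78) fell with MAPKi and rose without. USP17L15, a deubiquitinase gene, rose in both settings, by 1.46 with MAPKi and 3.28 without. Its family members are near-identical copies, so the signal of 1 member cannot be told from that of others.

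**Figure D5:**
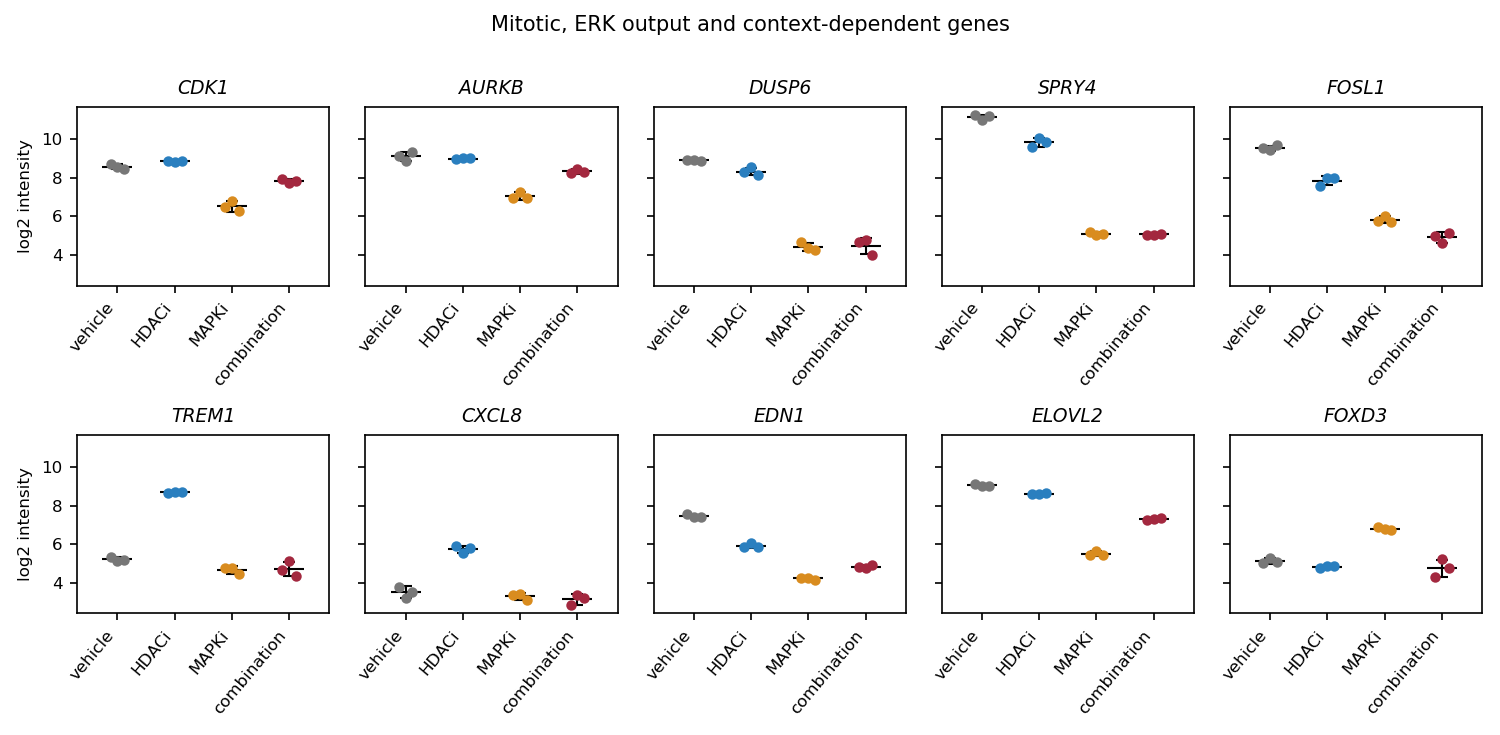
Log2 intensity of 10 genes in the 4 groups; each coloured point is 1 array, the dash is the group mean and the bars are 1 SD (n = 3). CDK1 and AURKB are higher with the combination than with MAPKi, DUSP6 and SPRY4 have combination means of 4.47 and 5.06 with arrays that overlap MAPKi, and TREM1 is high with HDACi (8.71) but not with the combination (4.71).

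By gene class, 1147 of 11733 protein-coding genes rose and 3091 fell. Of 1361 long non-coding RNA genes 65 rose and 216 fell, and of 1020 microRNA genes 20 rose and 117 fell. The protein-coding counts are near the shares over all genes (8.66% rose and 24.0% fell), and those of both non-coding classes are below them. Mean log2 intensity was 6.38, 4.91 and 4.14 in the 3 classes.

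Of the genes named here as risen or fallen, 13 had calls on the deposited scale that did not survive the loss of some single arrays (limma adjusted p at or above 0.05, with the log2 change without that array in parentheses). The call of GINS4, a replication helicase subunit, was lost without MAPKi replicate 3 (0.29). For CDC6, a licensing factor, it was lost without MAPKi replicate 3 (0.22) or combination replicate 1 (0.28). MYBL2, a cell cycle transcription factor, missed the threshold without MAPKi replicate 1 (0.26), MAPKi replicate 3 (0.26), combination replicate 1 (0.27) or combination replicate 3 (0.31). So did CDKN2A, which encodes p16, without MAPKi replicate 1 (-0.28), MAPKi replicate 2 (-0.37), combination replicate 1 (-0.28) or combination replicate 3 (-0.34). The call of the AP-1 subunit JUNB was lost without MAPKi replicate 2 (0.31), MAPKi replicate 3 (0.24), combination replicate 2 (0.22) or combination replicate 3 (0.36). For the immediate early gene IER5 it was lost without MAPKi replicate 2 (0.26), MAPKi replicate 3 (0.22), combination replicate 2 (0.23) or combination replicate 3 (0.25). The melanosome gene PMEL missed the threshold without MAPKi replicate 1 (0.31), MAPKi replicate 2 (0.36), MAPKi replicate 3 (0.37), combination replicate 2 (0.19) or combination replicate 3 (0.39). So did the BH3-only gene BIK without MAPKi replicate 1 (0.44) or combination replicate 2 (0.40). The call of the exonuclease EXO1 was lost without MAPKi replicate 3 (0.26) or combination replicate 1 (0.32). For the metallothionein MT1X it was lost without MAPKi replicate 3 (0.25), combination replicate 1 (0.37) or combination replicate 2 (0.31). The metallothionein MT1B missed the threshold without MAPKi replicate 1 (0.20), MAPKi replicate 2 (0.28), combination replicate 1 (0.25) or combination replicate 3 (0.24). So did TFEB, a lysosomal transcription factor, without MAPKi replicate 1 (-0.34), MAPKi replicate 2 (-0.29), MAPKi replicate 3 (-0.33), combination replicate 1 (-0.26) or combination replicate 3 (-0.28). The call of the protease gene CTSL was lost without MAPKi replicate 3 (0.22), combination replicate 1 (0.28) or combination replicate 2 (0.25). The counts of risen genes on the deposited scale in the AP-1 (2), metallothionein (2), homologous recombination (1), mismatch repair (1) and lysosome (1) lists each went to 0 in at least 1 of these settings.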

How the data were processed

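RNA of Hs695T cells, as 12 samples, was hybridised to single-colour Affymetrix gene arrays, 3 per group. Per the submitters' processing notes, the authors used RMA in Transcriptome Analysis Console. The deposited values are linear intensities. How arrays were scaled to each other, how the ERCC spike-ins of the labels' protocols were used, and the genome build used: not given in the sources used here. Precision is limited by 3 arrays a group. Of 29592 rows, 14783 carry 1 gene symbol in the platform annotation, 0 several and 14809 none. Symbols were updated through RefSeq (GRCh38.p14), and the brightest row was kept for each of 14599 genes (169 have more than 1 row). Intensities were turned to log2. limma 3.58.1 in R 4.3.3 (lmFit, eBayes) was fitted to group means over all 12 arrays, which share 1 estimate of the spread, and the contrasts were combination minus MAPKi, HDACi minus vehicle and their difference. p-values were adjusted by Benjamini-Hochberg over all genes. The same fit was made after quantile normalization. The fit was also checked on simulated arrays that had the spread shared by all 12 arrays. There, 26 of 50 genes changed by 0.5 (log2) were called, as were 50 of 50 at each of 1, 2 and 4, and 11 of 14399 unchanged genes. Far fewer genes changed in the simulation than were called in the comparison, so the share called at 0.5 does not carry over to it. Alternatives were median centring, removing the dimmest 40% of genes, trend and robust variance, the mean of probe sets, the 6 arrays compared alone, a replicate block and leaving out each array. Named genes are the 15 largest rises and falls that passed on both scales with arrays that do not overlap, up to 4 passing and 2 other genes by size in each list, the 10 largest differences between the entinostat effects in each direction that also passed in the comparison, up to 10 genes called in opposite directions, and a fixed set of checks. The genes, lists and motifs were chosen with earlier results of these data known.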

Additional observations from a re-analysis of the deposited data

Results flagged for a closer look

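The entinostat effect with MAPKi differed from that without it by a direct test on both scales (limma, Benjamini-Hochberg adjusted p under 0.05) for each gene here, as log2 of the first effect minus the second. Among mitotic genes the difference was 1.03 for CDK1, 1.39 for AURKB, 1.27 for PLK1, 1.03 for CDC20 and 0.74 for MKI67. Other genes with a higher effect under MAPKi were ELOVL2 (2.25), EDN1 (2.13), EFR3B (1.97), TFAP2C (1.79), CEMIP (1.74), TMEM158 (1.69), DENND2A (1.61), PHF19 (1.61), PTCHD1 (1.58) and CSPG4 (1.53). Inflammatory genes with a lower effect under MAPKi were TREM1 (-3.43), CXCL8 (-2.40), MMP13 (-2.13), IL24 (-1.74), MMP1 (-1.50) and CCL2 (-0.69). Genes with a higher mean under MAPKi than in vehicle and a lower effect were ANGPTL7 (-5.03), PI15 (-2.81), LOC653513 (-2.70), MATN2 (-1.98), PPP2R2B-IT1 (-1.94) and FOXD3 (-1.78). Choice by this difference favours such a pattern of means. The remaining lower effects were those of JPH1 (-1.94), SIPA1L2 (-1.93), USP17L15 (-1.82), FHOD3 (-1.72), GPR158 (-1.63) and FGFR2 (-1.54).

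Rows with no gene name, which enter no comparison of the report, also moved: 998 of 14809 (6.74%) were higher and 2134 (14.4%) lower with the combination than with MAPKi on both scales.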

How the results depend on the processing

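Quantile normalization moved the counts of genes higher and lower to 2859 and 3507 for combination against MAPKi (from 1267 and 5933), to 2651 and 3128 for HDACi against vehicle (from 1513 and 5424), and the higher differences between the entinostat effects to 901 (from 462). Median centring moved the higher counts to 1945 for combination against MAPKi and 739 for the differences. Leaving out 1 array gave 1075 to 1241 higher and 5101 to 6597 lower genes for combination against MAPKi, 1313 to 1576 and 4515 to 5582 for HDACi against vehicle, and 358 to 504 and 483 to 905 for the differences. Arrays of MAPKi and combination with the same replicate number did not deviate together (r 0.026, -0.047 and -0.024 across genes), so the numbers are not read as pairs. With the replicate block the counts for combination against MAPKi were 1262 and 5979. The replicate block after quantile normalization gave 2854 and 3520 there, 2643 and 3128 for HDACi against vehicle, and 865 higher differences. Of 233 named genes, 210 kept direction and call after quantile normalization and 230 under the replicate block on the deposited scale, which lost JUNB (0.32, limma adjusted p = 0.063), IER5 (0.26, 0.052) and PMEL (0.35, 0.059). Among genes called on at least 1 of the 2 scales, the sign turned after quantile normalization for RCOR1 (0.40), AURKA (0.46), JUN (0.11), MCL1 (0.27), HDAC1 (0.26), GSN (0.31), CCL2 (0.11) and B2M (0.20), with the same values under the block for the first 7. Named genes called on neither scale also turned, namely GPNMB (0.14), GAPDH (0.18), GAP43 (0.04), SPRY4 (0.09), IL24 (0.03) and CD14 (0.07). The cause was not tested. Dim genes limit the precision of a change, since no detection calls were used here.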

Other observations

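Other surface, ligand and chaperone genes moved strongly, and were chosen after their values were seen. KITLG, the ligand of the receptor KIT, rose by 1.77 ± 0.11, quantile 2.18 when entinostat was added to MAPKi, the Notch ligand JAG1 by 1.68 ± 0.13, quantile 2.10, the somatostatin receptor SSTR2 by 1.90 ± 0.20, quantile 2.35 and the adhesion molecule CEACAM1 by 1.80 ± 0.11, quantile 2.30. Chaperones of the heat shock protein 70 system went both ways. HSPA2 (1.71 ± 0.13, quantile 2.09) and HSPA4L (1.71 ± 0.12, quantile 2.19) rose, whereas HSPH1, a nucleotide exchange factor of that system, fell from 8.97, 8.99 and 8.84 with MAPKi to 7.06, 7.08 and 7.15 with the combination (-1.84 ± 0.10, quantile -1.40).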
